A study of Mus musculus with 6 samples.

Results

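The genes described here are 8 transcription factors that help to give segments of the kidney tubule their identity: Hnf4a, Hnf4g, Pax2, Pax8, Esrra, Esrrg, Tfap2b and Nr1h4. They were taken by symbol from a deposited table of 24434 genes, in which all 8 had a row, and all 8 were among the 16373 genes that passed the filter on low counts. The table holds RNA sequencing of whole mouse kidney in 6 libraries, 3 labelled db/db (the diabetic model, homozygous for the db allele of the leptin receptor gene) and 3 labelled db/m (the control, heterozygous for that allele). Both groups were fed normal chow. The labels used here state no sex, age, strain or time point, and do not say whether a library came from 1 animal or from several, so a p-value measures only the spread between libraries, which may be technical. Total counts ran from 25937756 to 35931140 per library, and single members had 111 to 20504 counts in a library. Levels below are CPM (a gene's count scaled to a common library size), after the TMM correction, with the SD over 3 libraries. A log2 fold change is db/db over db/m with its standard error (SE), and a gene was called where its adjusted p in the edgeR quasi-likelihood test was below 0.05.

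Each nephron segment uses its own set of transcription factors. HNF4A is a nuclear receptor that drives the maturation of proximal tubule cells, and HNF4G is its close relative. PAX2 and PAX8 are paired box factors that specify the whole renal lineage in the embryo, and in the adult kidney PAX2 is known mainly from the collecting duct and PAX8 from most of the tubule. TFAP2B, an AP-2 factor, is needed for the distal convoluted tubule. ESRRA and ESRRG, the estrogen-related receptors, bind no estrogen and switch on mitochondrial and oxidative genes together with the coactivators PGC-1alpha and PGC-1beta. NR1H4, better known as FXR, is the receptor for bile acids and is expressed in the proximal tubule.

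Of the 8 genes, 1 was higher in db/db (Nr1h4) and 2 were lower (Pax2 and Tfap2b), while 5 were not called. Over all genes tested, 24.0% were called, with 13.1% higher and 10.8% lower, so calls were common throughout and 3 of 8 is not read as particular to these genes. In TMM-scaled CPM the groups did not overlap for 4 of the 8 genes (the 3 called and Hnf4a), against 44.6% of all genes tested. The median log2 fold change of the 8 was 0.04, beside -0.06 for all genes tested. In whole kidney RNA, fewer cells of a type and less RNA per cell cannot be told apart. Hnf4a, Pax2, Pax8, Esrra and Esrrg overlap genes on the opposite strand, whose reads cannot be told from theirs if counting ignored strand.

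**Figure D1:**
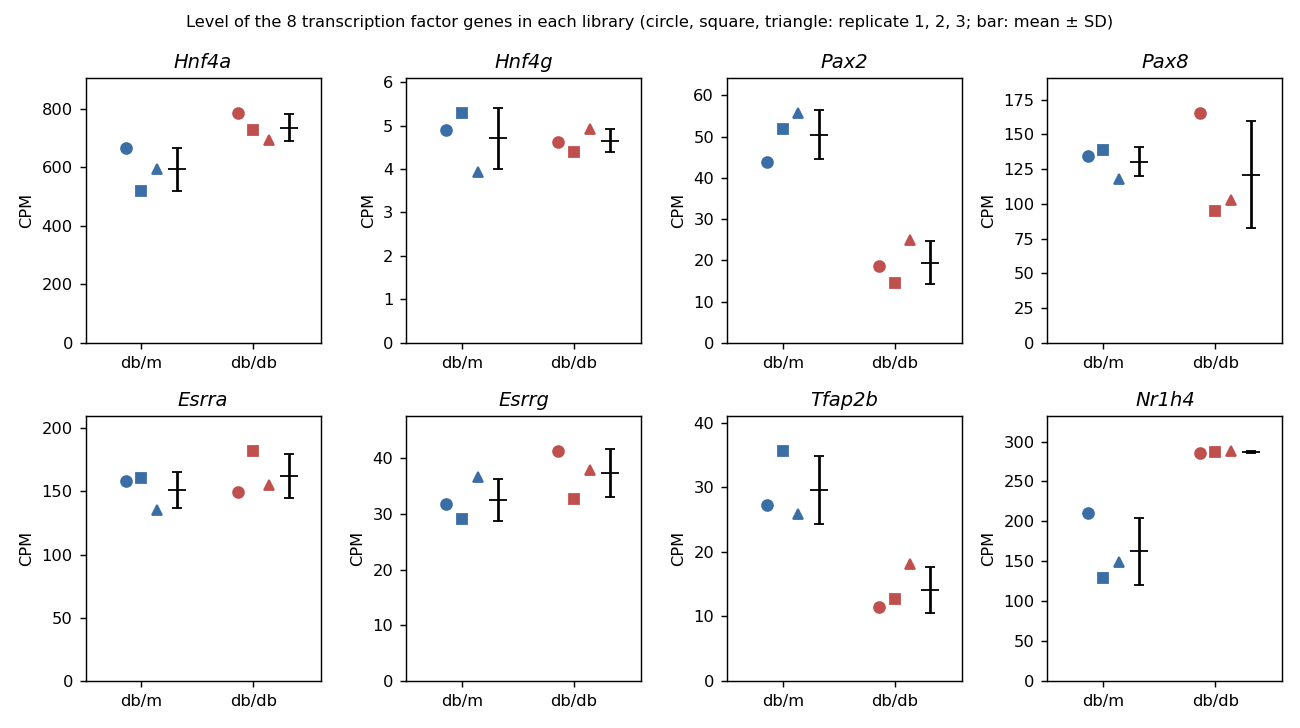
Level in CPM (vertical axes, each from 0) of the 8 genes in the 3 db/m and 3 db/db libraries, 1 point per library, with the mean and SD beside each group. Pax2 and Tfap2b lie lower in every db/db library than in any db/m library, and Nr1h4 lies between 285 and 288 CPM in all 3 db/db libraries against 129 to 210 CPM in db/m.

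Nr1h4, the bile acid receptor, rose 1.77-fold. In order of replicate it stood at 210, 129 and 148 CPM in db/m and at 285, 287 and 288 CPM in db/db, and the same order is kept for the other genes below. The db/db libraries were almost level with each other, at 287 ± 1.52 CPM, while the db/m libraries ranged widely, at 163 ± 42.1 CPM, with replicate 1 the highest. The log2 fold change was 0.82 (SE 0.17, 95% interval 0.42 to 1.22, adjusted p = 0.0147). With db/m replicate 3 and db/db replicate 3 both left out, the 2 libraries with the most adipocyte RNA, it was 0.76 and no longer passed (adjusted p = 0.107), and with any single library left out adjusted p was 0.00187 to 0.0497. On total counts alone the log2 fold change of Nr1h4 was smaller, at 0.565, and still passed (adjusted p = 0.0298).

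Beside Nr1h4, markers of the proximal tubule differed by segment. Of 12 listed markers of the first and middle proximal segments (S1 and S2), 0 were higher and 4 lower by edgeR, with Gatm the most changed (log2 fold change -1.29), and 2 were higher at an unadjusted p below 0.05 and by DESeq2 and 0 by limma-voom. Their median log2 fold change was -0.27, with 6 lower at an unadjusted p below 0.05 by edgeR. Their summed level, which gives abundant markers more weight than the median does, was 9908 to 12750 CPM in db/m and 11350 to 13900 CPM in db/db. Relative to that sum, Nr1h4 was higher in every db/db library, with log2 ratios of -5.92, -6.26 and -6.12 in db/m and -5.41, -5.60 and -5.30 in db/db. Of 7 markers of the straight terminal segment (S3) 6 were higher, and their sum went from 2609 to 2929 CPM in db/m to 7579 to 8849 CPM in db/db. Relative to the S3 sum Nr1h4 was lower in every db/db library, with a mean log2 difference of -0.74. These ratios were chosen after the values had been seen and carry no test, and the part of a shift between segments in the Nr1h4 result was not tested.

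Genes known to respond to FXR went both ways. Of 13 tested, 2 were higher and 5 lower, with a median log2 fold change of -0.74. The list was not split by whether FXR raises or lowers a gene, so its counts and median do not measure FXR activity. Slc51a, which encodes the alpha subunit of the basolateral bile acid exporter, rose from 45.3 ± 14.8 to 143 ± 26.9 CPM (log2 fold change 1.66, SE 0.24, adjusted p = 0.00396). Its partner subunit Slc51b gave 0.38 on the log2 scale (adjusted p = 0.0244), a call that was lost when replicate 1 or 2 of either group was left out (adjusted p = 0.0521 to 0.0676), when both replicates 3 were (0.0926) and on total counts alone (0.361). Complement C3 fell from 198 ± 69.8 to 13.5 ± 3.21 CPM (log2 fold change -3.87, SE 0.32). Slc10a2, the apical bile acid importer, gave -1.26 (adjusted p = 0.0154), and the call was lost with db/m replicate 2, db/db replicate 3 or both replicates 3 left out (0.0506, 0.0614 and 0.112). The water channel gene Aqp2 gave -1.09 (adjusted p = 0.0154, and 0.0717 with both replicates 3 left out). Aqp2 is also counted below among the principal cell genes of the collecting duct. The remaining called genes were Baat, which conjugates bile acids (-2.56, adjusted p = 0.0246, and 0.0722 to 0.0823 with any db/db library left out, 0.0761 with both replicates 3 left out and 0.0608 by limma-voom), and the heparan sulfate carrier Sdc1 (-0.86, adjusted p = 0.031, and 0.0569 to 0.0946 with replicate 2 or 3 of either group left out). Nr0b2, which encodes the corepressor SHP and is the textbook FXR target, was scarce, at 2.05 ± 0.347 CPM in db/m and 1.23 ± 0.382 CPM in db/db (adjusted p = 0.125, and 0.0429 on total counts alone, where 1 FXR target was higher and 7 lower). Leaving out replicate 1 or 2 of either group gave 1 higher gene. Leaving out replicate 2 of either group gave 3 lower genes, leaving out db/db replicate 3 gave 2, and leaving out both replicates 3 gave 1 higher and 1 lower.

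Pax2 fell 2.60-fold, the largest change of the 8. Its level was 44.0, 51.8 and 55.8 CPM in the db/m libraries, and 18.7, 14.6 and 24.9 CPM in the db/db libraries. The lowest db/m library was thus well above the highest db/db library. The log2 fold change was -1.38 (SE 0.20, 95% interval -1.84 to -0.92, adjusted p = 0.00357), and it was called in every alternative run, at adjusted p = 1.63e-09 to 0.0191.

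Pax8, the other paired box gene, differed by less than the spread between libraries. It was at 135, 139 and 118 CPM in db/m and at 166, 94.7 and 103 CPM in db/db, so db/db replicate 1 was the highest of all 6 libraries and db/db replicate 2 the lowest. The log2 fold change was -0.11 (SE 0.21, 95% interval -0.59 to 0.38, adjusted p = 0.729). Of 8 markers of the thick ascending limb 0 were higher and 2 lower by edgeR (1 higher at an unadjusted p below 0.05 and by DESeq2, and 0 by limma-voom), with a median log2 fold change of -0.72. Leaving out db/m replicate 2 or db/db replicate 1 gave 1 lower gene, and leaving out db/db replicate 2 or 3, or both replicates 3, gave 0. Their sum was 2669, 3742 and 3749 CPM in db/m and 4289, 2336 and 3231 CPM in db/db, an order that Pax8 shared among the db/db libraries but not among the db/m libraries, and their part in the Pax8 spread was not tested. Relative to Pax8, Pax2 was lower in every db/db library than in any db/m library. The log2 ratio of Pax2 to Pax8 counts was -1.61, -1.42 and -1.08 in db/m and -3.14, -2.69 and -2.05 in db/db. That is a mean difference of -1.26, or a ratio 2.39-fold lower, with no overlap between groups (exact two-sided permutation test, p = 0.1, the smallest that 3 against 3 allows, adjusted p = 0.3 over the 3 ratios tested). This ratio does not depend on how the libraries are scaled.

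Markers of the cells that carry Pax2 were lower in part. Of 8 principal cell genes of the collecting duct 0 were higher and 2 lower by edgeR (Aqp2 and the vasopressin receptor Avpr2, at -1.09 each), with 0 higher at an unadjusted p below 0.05 and by DESeq2 or limma-voom, and the list summed to 961 to 1507 CPM in db/m and 621 to 805 CPM in db/db. Aqp2 alone stood at 721 ± 171 CPM in db/m and 338 ± 82.3 CPM in db/db, a large part of that sum. Leaving out db/m replicate 1 gave 3 lower genes, leaving out any other single library gave 1, and leaving out both replicates 3 gave 0. The Avpr2 call (adjusted p = 0.0457) was lost with any library but db/m replicate 1 left out (0.0851 to 0.133), with both replicates 3 left out (0.16) and by limma-voom (0.0902), which called 1 of the 8 lower. Pax2 relative to the sum of the 8 genes had log2 ratios of -4.45, -4.86 and -4.40 in db/m and -5.37, -5.41 and -5.01 in db/db. The mean difference was -0.69, with no overlap. This ratio, too, was chosen after the values had been seen and carries no test. Urothelial marker RNA also varied between libraries, at 42.5, 37.3 and 101 CPM in db/m and 16.1, 1.35 and 48.7 CPM in db/db over 7 genes, and in both groups replicate 3 was highest for this sum and for Pax2. Both sums were still lower in db/db among replicates 1 and 2, and the part of either cell type in the fall of Pax2 was not tested. Of 10 genes known as PAX2 or PAX8 targets, 5 could be tested and 0 were called by edgeR, DESeq2 or limma-voom in either direction (1 lower and 0 higher at an unadjusted p below 0.05). The rest did not pass the filter on low counts, so this list cannot tell how PAX targets responded. Lhx1, a LIM homeobox factor of the early nephron, gave -0.50 on the log2 scale (adjusted p = 0.125, and 0.0248 on total counts alone), and Gata3, which guides the ureteric bud, gave -0.58 (adjusted p = 0.187). Wnt4, a signal for tubule formation, had -1.02 with an SE of 1.08 (adjusted p = 0.515), and Sfrp2, a modulator of Wnt signals, had 0.27 (adjusted p = 0.645).

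Tfap2b, the distal convoluted tubule factor, fell 2.10-fold. It stood at 27.3, 35.7 and 25.9 CPM in db/m and at 11.5, 12.6 and 18.2 CPM in db/db. Within db/m replicate 2 was the highest, and within db/db replicate 3, which was still below every db/m library. The log2 fold change was -1.07 (SE 0.20, 95% interval -1.55 to -0.59, adjusted p = 0.0106). Tfap2b was called in every alternative run, at adjusted p = 1.73e-05 to 0.0456. Its relative Tfap2a had nearly the same log2 fold change, -1.07 (SE 0.22), from 7.90 ± 1.48 to 3.76 ± 0.599 CPM (adjusted p = 0.0133), and was not called with db/db replicate 3 (adjusted p = 0.051) or both replicates 3 (0.0964) left out.

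Genes of the distal convoluted tubule fell in part. Of 13 listed, 0 were higher and 5 lower by edgeR (0 higher at an unadjusted p below 0.05, and by DESeq2 and limma-voom), with a median log2 fold change of -0.64. Slc12a3, the thiazide-sensitive sodium chloride cotransporter that defines the segment, went from 886 ± 178 to 561 ± 45.1 CPM (log2 fold change -0.66, adjusted p = 0.02), and was not called with db/db replicate 1 (adjusted p = 0.0678), db/db replicate 3 (0.0788) or both replicates 3 (0.0881) left out. Pvalb, a calcium buffer of the early part of the segment, fell from 114 ± 32.2 to 20.7 ± 1.34 CPM (log2 fold change -2.46, SE 0.20). The others called were the magnesium channel gene Trpm6 (-0.86, adjusted p = 0.0332) and the kinase genes Wnk4 (-0.64, adjusted p = 0.0418) and Stk39 (-0.84, adjusted p = 0.0296), which regulate the cotransporter. These 3 calls were lost with db/m replicate 2 or db/db replicate 3 left out (adjusted p = 0.0633 to 0.117), and each with 2 or more of the other libraries left out. Leaving out db/m replicate 1 gave 3 lower genes, leaving out db/m replicate 2 or db/db replicate 1 gave 2, and leaving out db/db replicate 3 or both replicates 3 gave 1. Relative to the summed counts of the 13 genes, Tfap2b had log2 ratios of -6.73, -6.79 and -6.85 in db/m and -7.91, -7.58 and -7.15 in db/db. The db/m libraries were close together on that scale and all db/db libraries were lower, with a mean difference of -0.76. This ratio was chosen after the values had been seen and carries no test. The part of distal convoluted tubule cells in the fall of Tfap2b was not tested.

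**Figure D2:**
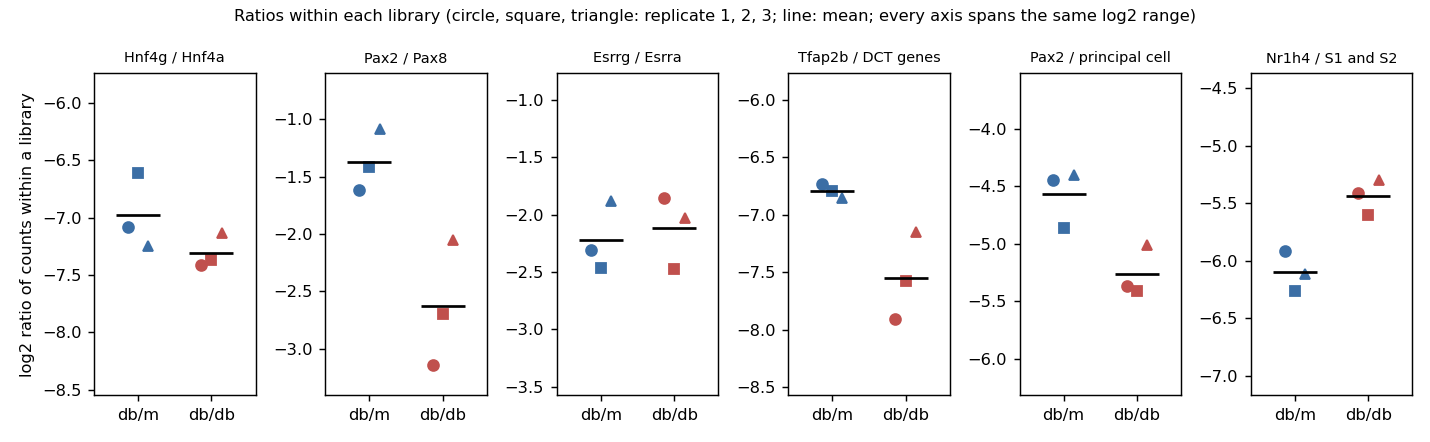
Log2 ratio of counts within each library (vertical axes, all of equal span), 1 point per library and a line at the mean. Shown are 3 pairs of related factors, and 3 factors over the summed counts of a list of segment markers (DCT: distal convoluted tubule). Nr1h4 against the S3 markers is not drawn and was lower in every db/db library (mean log2 difference -0.74). Pax2 against Pax8, Tfap2b and Pax2 against their segments, and Nr1h4 against the S1 and S2 markers show no overlap of db/m and db/db, whereas the Esrrg to Esrra ratios overlap. The ratios to segment markers were chosen after the values had been seen and carry no test.

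Promoter windows of the 3 genes that were called are shown because these are the members whose RNA moved, 2 of them in the same direction. RefSeq windows from 250 bases before to 50 after a listed start (build GRCm38.p6) were found for 7 of the 8 genes, 13 windows in all, and none for Hnf4g. Capitals mark the motifs named below, found on either strand. The Pax2 window (chr19:44755502-44755801, + strand) is the only one of its 3 windows with a match, the Tfap2b window is chr1:19211804-19212103 (+ strand) and the Nr1h4 window chr10:89506609-89506908 (- strand). Counts summed over a gene do not tell which start was in use.
Pax2: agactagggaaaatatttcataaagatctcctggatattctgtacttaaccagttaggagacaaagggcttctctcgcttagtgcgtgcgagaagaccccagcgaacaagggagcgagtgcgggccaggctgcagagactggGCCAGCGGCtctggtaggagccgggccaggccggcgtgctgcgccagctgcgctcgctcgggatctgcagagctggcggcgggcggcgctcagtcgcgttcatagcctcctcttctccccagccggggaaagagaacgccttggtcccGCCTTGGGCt
Tfap2b: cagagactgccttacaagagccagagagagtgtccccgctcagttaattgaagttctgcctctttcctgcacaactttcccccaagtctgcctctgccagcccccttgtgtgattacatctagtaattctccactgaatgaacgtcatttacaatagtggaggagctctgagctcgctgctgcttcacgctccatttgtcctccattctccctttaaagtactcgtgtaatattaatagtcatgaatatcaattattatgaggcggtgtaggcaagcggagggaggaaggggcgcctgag
Nr1h4: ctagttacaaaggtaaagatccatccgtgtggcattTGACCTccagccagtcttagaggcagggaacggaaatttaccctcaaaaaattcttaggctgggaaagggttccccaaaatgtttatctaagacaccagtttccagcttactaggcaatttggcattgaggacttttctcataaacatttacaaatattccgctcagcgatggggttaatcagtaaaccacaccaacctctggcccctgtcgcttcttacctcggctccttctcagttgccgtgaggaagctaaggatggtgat
The motifs searched were the AP-2 motif GCCNNNGGC, the nuclear receptor half-site AGGTCA, its direct and its inverted repeat spaced by 1 base, the ERR element TCAAGGTCA, which contains that half-site, the HNF4 core CAAAGTCCA and the PAX core GCGTGAC. The Pax2 window held 2 matches to the AP-2 motif, the first starting at offset -108 from the start site. Of all 32851 RefSeq windows of this length, 16.6% held at least 1. That share is per window, whereas this window was picked from 3 because it held a match. An Esrrg window also held an AP-2 match, at offset -218, and Esrrg was not called. The Nr1h4 window held a nuclear receptor half-site on the reverse strand at offset -214, and 16.3% of all windows held one. The Tfap2b window held none of the motifs searched. None of the 13 windows held the HNF4 core (0.475% of all windows), the ERR element (0.423%) or the PAX core (2.09%). A match describes these letters and is not a measured binding site.

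Hnf4a was the most abundant of the 8 per length and was higher in each db/db library, without passing the test. It stood at 665, 519 and 595 CPM in db/m and at 785, 728 and 694 CPM in db/db. On this TMM-scaled level the groups did not overlap, though db/m replicate 1 and db/db replicate 3 were close. The log2 fold change was 0.31 (SE 0.11, 95% interval 0.05 to 0.58, adjusted p = 0.0866). It passed with the DESeq2 Wald test (0.33, adjusted p = 0.0343) and with db/m replicate 1 left out (0.42, adjusted p = 0.0368), and on total counts alone it was 0.05 (adjusted p = 0.715). Relative to the S1 and S2 marker sum the Hnf4a ratios overlapped between groups, from -4.26 to -4.12 in db/m and -4.26 to -3.95 in db/db on the log2 scale.

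Hnf4g was the scarcest, at 4.91, 5.29 and 3.93 CPM in db/m and 4.62, 4.40 and 4.93 CPM in db/db. These ranges overlapped fully, and the log2 fold change was -0.02 with a 95% interval of -0.46 to 0.42 (adjusted p = 0.952). The log2 ratio of Hnf4g to Hnf4a counts averaged -6.98 in db/m and -7.31 in db/db (exact two-sided permutation test, p = 0.2, adjusted p = 0.3).

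Known targets of HNF4A were split evenly, with 4 higher and 4 lower of 18 tested and a median log2 fold change of 0.06. Apom, a lipoprotein carrier of sphingosine phosphate, rose from 47.6 ± 4.52 to 124 ± 17.8 CPM (log2 fold change 1.38, SE 0.13), and the organic anion transporter Slc22a6 rose from 513 ± 96.7 to 1526 ± 113 CPM (1.57, SE 0.15). Ttr, the thyroid hormone carrier transthyretin, went from 27.3 ± 20.7 to 203 ± 32.9 CPM (2.90, SE 0.71, adjusted p = 0.0263), a call lost with db/m replicate 2 or any db/db library left out (adjusted p = 0.0628 to 0.0696). Pklr, a pyruvate kinase, fell with -0.81 (adjusted p = 0.00696, and 0.0615 with both replicates 3 left out), and Apob, the core protein of lipoproteins, fell from 255 ± 34.2 to 85.0 ± 32.7 CPM (adjusted p = 0.00821, and 0.055 with both replicates 3 left out). Leaving out replicate 2 of either group or db/db replicate 3 gave 2 higher targets, and leaving out both replicates 3 gave 0 lower ones. Listed liver markers summed to 250, 177 and 281 CPM in db/m and 96.8, 78.3 and 93.0 CPM in db/db. Of 5 tested liver markers, 2 were higher and 1 lower. The part of liver-type RNA in these targets was not tested.

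Esrra and Esrrg were not called. Esrra stood at 158, 161 and 135 CPM in db/m and 150, 182 and 155 CPM in db/db. Esrrg stood at 31.8, 29.1 and 36.6 CPM in db/m and 41.3, 32.7 and 38.0 CPM in db/db. For both genes the groups overlapped. The log2 fold change of Esrra was 0.10 (95% interval -0.16 to 0.36, adjusted p = 0.522) and that of Esrrg was 0.20 (95% interval -0.09 to 0.49, adjusted p = 0.274). On total counts alone both changed sign, to -0.16 and -0.06. The log2 ratio of Esrrg to Esrra averaged -2.22 ± 0.30 in db/m and -2.12 ± 0.32 in db/db (exact two-sided permutation test, p = 0.8, adjusted p = 0.8). Esrrb, the remaining member of this receptor family, was at 43.2 ± 4.95 CPM in db/m and 28.1 ± 5.98 CPM in db/db (log2 fold change -0.62, adjusted p = 0.0328), but was not called with db/m replicate 2 or 3, or with db/db replicate 1 or 2, left out (adjusted p = 0.0635 to 0.105).

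The coactivators Ppargc1a and Ppargc1b fell. Ppargc1a, which encodes PGC-1alpha, was at 48.6, 62.5 and 45.6 CPM in db/m and 31.4, 28.3 and 32.4 CPM in db/db, with no overlap (log2 fold change -0.77, SE 0.13, adjusted p = 0.00766). Ppargc1b, which encodes PGC-1beta, gave -0.80 (adjusted p = 0.016), and was not called with replicate 2 of either group or db/db replicate 3 left out (adjusted p = 0.0586 to 0.0621), or with both replicates 3 left out (0.0702). Of 18 partners and coregulators tested, 0 were higher and 5 lower by edgeR, with 0 higher by DESeq2, by limma-voom and at an unadjusted p below 0.05, and a median of -0.15. Nrip1, a corepressor of nuclear receptors, fell with -0.70 (adjusted p = 0.0114, and 0.0834 with both replicates 3 left out). Prox1, a homeobox factor that can restrain nuclear receptors, gave -2.14 (adjusted p = 0.0139, and 0.0535 with db/db replicate 1 left out), and the other gene called was Rxrg, a scarce retinoid X receptor at 1.12 ± 0.217 CPM in db/m and 0.073 ± 0.126 CPM in db/db (adjusted p = 0.0199, and 0.0554 to 0.0605 with db/m replicate 2 or db/db replicate 1 or 2 left out). Rxra, the shared partner of FXR and many other receptors, was at 131 ± 21.0 CPM in db/m and 151 ± 13.4 CPM in db/db (adjusted p = 0.287). Leaving out db/m replicate 2, db/db replicate 1 or 2, or both replicates 3 gave 3 lower genes, and total counts alone gave 10.

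Genes of oxidative metabolism known as ERR targets rose in part. Of 23 tested, 6 were higher and 0 lower by edgeR (0 lower by DESeq2, by limma-voom and at an unadjusted p below 0.05), with a median log2 fold change of 0.17 beside -0.06 for all genes. Cycs, the electron carrier cytochrome c, rose from 247 ± 9.60 to 445 ± 35.6 CPM (log2 fold change 0.85, SE 0.09, adjusted p = 0.00131). Acadm, the medium-chain acyl-CoA dehydrogenase, rose from 510 ± 40.0 to 970 ± 202 CPM (0.93, adjusted p = 0.00795, and 0.0812 with both replicates 3 left out). Cox8a, a subunit of cytochrome c oxidase, gave 0.42 (adjusted p = 0.0262), a call lost when any library but db/m replicate 1 was left out (adjusted p = 0.0526 to 0.0781), when both replicates 3 were (0.144) and on total counts alone (0.193). Cpt1b, the muscle form of the mitochondrial fatty acid importer, gave -0.19 (adjusted p = 0.62). Leaving out any library but db/m replicate 1 gave 2 or 3 higher targets, leaving out both replicates 3 gave 2, and total counts alone gave 2 higher and 1 lower with a median of -0.09.

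**Figure D3:**
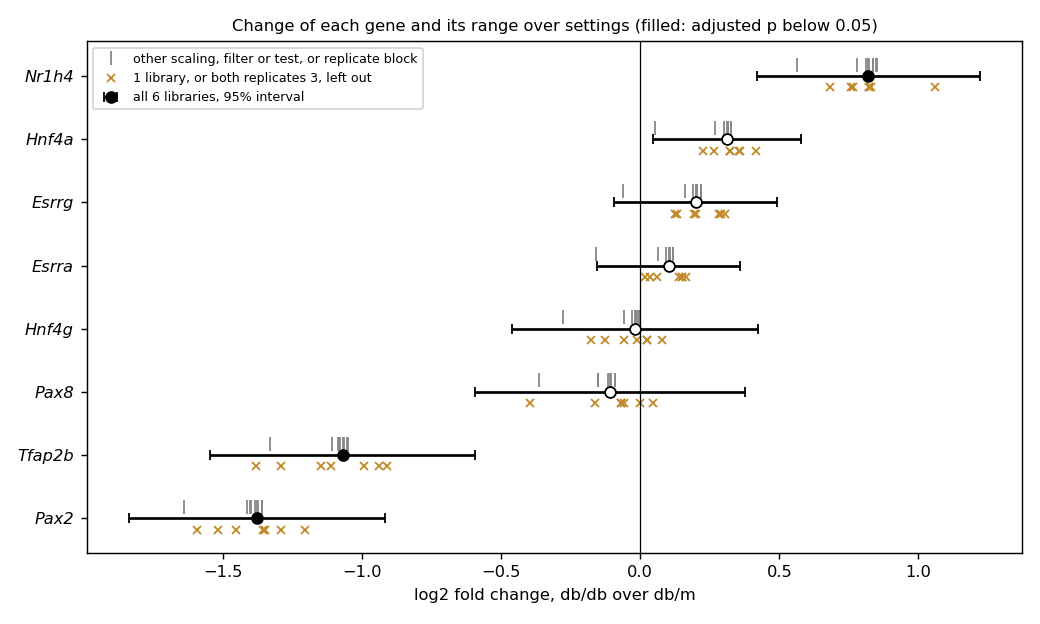
Log2 fold change of db/db over db/m (horizontal axis) for the 8 genes, with the 95% interval from all 6 libraries, the values under other scaling, filters, tests or the replicate block (grey) and the values with libraries left out (orange). Pax2, Tfap2b and Nr1h4 stay on their side of 0 throughout, while Esrra, Esrrg, Hnf4g and Pax8 reach or cross it in at least 1 setting.

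Per length the order of the 8 genes was the same in both groups except for Pax2 and Esrrg. Length here is the summed exon length in GENCODE M21, which may differ from the annotation behind the counts. In db/m the level was 136 ± 16.7 CPM per kb for Hnf4a, 70.6 ± 18.3 for Nr1h4, 67.4 ± 6.31 for Esrra, 51.0 ± 4.19 for Pax8, 11.4 ± 1.35 for Pax2, 5.72 ± 0.666 for Esrrg, 4.75 ± 0.846 for Tfap2b and 1.79 ± 0.267 for Hnf4g. In db/m the neighbours Nr1h4 and Esrra, and Esrrg and Tfap2b, differed by less than 1 SD or little more. In db/db the same scale gave 169 ± 10.6 for Hnf4a, 125 ± 0.660 for Nr1h4, 72.4 ± 7.73 for Esrra and 47.3 ± 15.1 for Pax8. It gave 6.57 ± 0.768 for Esrrg, 4.37 ± 1.17 for Pax2, 2.26 ± 0.572 for Tfap2b and 1.77 ± 0.101 for Hnf4g, so Pax2 stood below Esrrg there and above it in db/m.

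The genes with the most similar profiles over the 6 libraries were sought among 11064 genes, by the root mean square (RMS) difference of centred log2 CPM. Since a near profile carries the member's own difference between groups, fold changes of these genes restate it and are given as a description only. For Pax2 they were Mgat4a, a Golgi enzyme that branches N-glycans, at 0.09, the desmosomal cadherin Dsg2 at 0.13 and the tight junction gene Cldn1 at 0.16, with log2 fold changes of -1.48, -1.35 and -1.26. For Tfap2b they were the Notch ligand Jag1, Rassf6 and Lrch3, at RMS differences of 0.13 to 0.14, with log2 fold changes of -1.10 to -0.94. For Nr1h4 they were Prxl2a, a peroxiredoxin-like gene, Slc22a17, a receptor for lipocalin, and the ribosomal gene Rps2, at 0.09 to 0.10, with log2 fold changes of 0.77 to 0.83. Rps2 has many near-identical pseudogenes, so its count is uncertain. The nearest gene was Mthfsl for Hnf4a, Dph6 for Hnf4g, Eps8 for Pax8, the complex I gene Ndufb7 for Esrra and Snap23 for Esrrg, at RMS differences of 0.01 to 0.09.

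Of 36 other transcription factors of the nephron that were tested, 3 were higher and 8 lower, with a median log2 fold change of -0.47. Sall1, a zinc finger factor of nephron progenitors, fell from 76.2 ± 21.3 to 30.2 ± 4.05 CPM (log2 fold change -1.34, SE 0.22, adjusted p = 0.00583). Mecom, a factor of the distal nephron, fell with -0.85 (adjusted p = 0.00881), and Tcf21, a factor of podocytes and stroma, with -0.84 (adjusted p = 0.00595), and neither was called with both replicates 3 left out (0.0756 and 0.0542). Beside Tcf21, of 8 podocyte markers 0 were higher and 3 lower by edgeR (1 higher at an unadjusted p below 0.05 and by DESeq2, and 0 by limma-voom), and they summed to 391 to 485 CPM in db/m and 284 to 380 CPM in db/db. With both replicates 3 left out 1 was higher and 1 lower. The part of podocyte RNA in the Tcf21 result was not tested. Irx3, an Iroquois factor, rose from 36.6 ± 5.80 to 64.5 ± 3.27 CPM (0.82, SE 0.12). Leaving out db/m replicate 2 or db/db replicate 1 gave 4 lower genes, leaving out replicate 3 of either group or db/db replicate 2 gave 5, leaving out both replicates 3 gave 2, and total counts alone gave 15. Leaving out db/db replicate 3 or db/m replicate 2 gave 2 higher genes.

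Nuclear receptors outside the 8 went both ways. Of 25 tested, 2 were higher and 7 lower, with a median of -0.16. Rarb, a retinoic acid receptor, fell from 12.3 ± 1.18 to 4.75 ± 0.381 CPM (-1.37 on the log2 scale, adjusted p = 0.00143), and Nr1i2, the xenobiotic receptor PXR, from 13.5 ± 1.01 to 6.88 ± 0.914 CPM (-0.97, adjusted p = 0.0049). The clock receptor Nr1d1 went from 27.8 ± 5.94 CPM to a mean of 52.8 CPM (0.93, adjusted p = 0.00709), and Vdr, the vitamin D receptor, gave 0.60 (adjusted p = 0.0219), a call lost with db/m replicate 2 or db/db replicate 1 or 2 left out (0.0628 to 0.0671) and on total counts alone (0.109). Among 4 tested relatives of the 8 genes, Nr1h3, the oxysterol receptor LXRalpha and the closest in name to Nr1h4, rose from 33.8 ± 0.835 to 55.8 ± 2.32 CPM (0.72, SE 0.08, adjusted p = 0.0013), and Nr1h2, its sister receptor LXRbeta, was at 88.6 ± 6.90 and 103 ± 2.68 CPM (adjusted p = 0.106). Leaving out any single library gave 2 to 4 lower receptors, and leaving out both replicates 3 gave 2. Leaving out db/m replicate 2 or db/db replicate 1 gave 1 higher receptor, as did total counts alone.

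**Figure D4:**
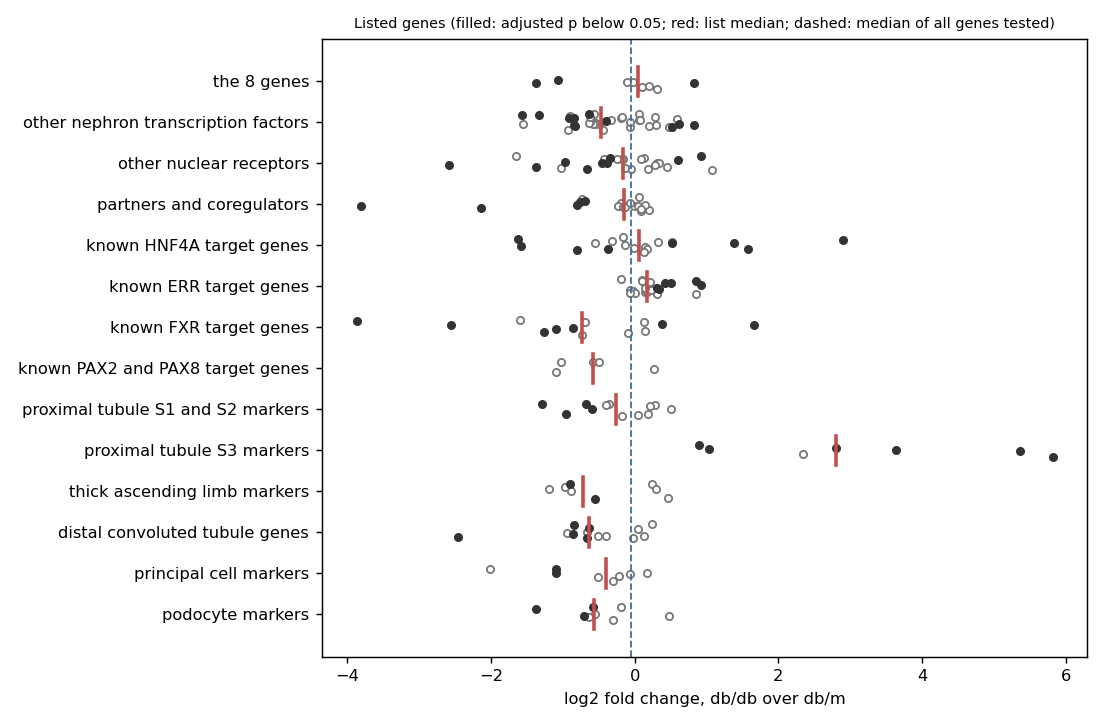
Log2 fold change of db/db over db/m (horizontal axis) of the 8 genes and of every tested gene of the other lists, 14 rows in all, with filled points for adjusted p below 0.05, a red bar at each list's median and a dashed line at -0.06, the median of all genes tested. The FXR targets centre at -0.74 with single genes on both sides, the ERR targets at 0.17, and the S3 markers lie entirely above 0.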

How the data were processed

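Whole mouse kidney RNA was measured in 6 libraries. Per the labels' protocols, poly(A) RNA was enriched and made into strand-specific libraries, and the submitters' processing notes name HISAT2, StringTie, SAMtools, DESeq2, FastQC and fastp, with no versions. Genome build, annotation and counting settings were not stated in the sources used here. Whole-number raw counts for each gene symbol were deposited by the authors. A value of 2 was more frequent (4164 cells of the table) than a value of 1 (1318), so some fragments may have been counted more than 1 time.

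Genes passing filterByExpr were fitted with the edgeR quasi-likelihood test (edgeR 4.0.16, R 4.3.3) on TMM-scaled counts (factors 1.062 to 1.122 in db/m and 0.901 to 0.923 in db/db) with no covariates and Benjamini-Hochberg adjustment over all genes. The SE is the log2 fold change divided by the square root of F. Ratios used raw counts within a library, and those to marker sums were chosen after the values had been seen. Fits were tested on simulated data with few changed genes, balanced in direction, which does not test the scaling where many genes differ. Alternatives were other scalings, DESeq2 1.42.0, limma-voom (limma 3.58.1), other filters, mitochondrial genes left out, a replicate block and libraries left out. Leaving out both replicates 3 was added after the data were seen.

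The members and lists were chosen with earlier results of these data known. Named list genes are up to 4 of each list (3 of smallest p in the majority direction, 1 in the other, average log2 CPM at least 0). Slc12a3, Pvalb, Esrrb, Ppargc1b, Apob, Slc51b, Nr0b2, Avpr2, Trpm6, Wnk4, Stk39, Baat, Sdc1, Rxrg, Vdr and Gatm were added after their values were seen, and some genes that the rule names are not reported here. The 3 nearest profiles were sought among tested genes of average log2 CPM at least 2, log2 CPM having a prior count of 2. The adipocyte list holds Pck1, which the kidney makes itself, and without it summed to 177 and 374 CPM in db/m and db/db replicate 3 and 52.0 to 73.2 CPM in the others.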

Additional observations from a re-analysis of the deposited data

How the results depend on the processing

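Pax2 and Tfap2b kept their direction and their call in every alternative run, and Nr1h4 in every one but the removal of both replicates 3 (log2 fold change 0.76, adjusted p = 0.107, and 0 members higher). With total counts only the median of all genes moved from -0.06 to -0.32, Esrra turned to -0.16 and Esrrg to -0.061, and 1072 genes were higher and 4883 lower instead of 2151 and 1774. With the DESeq2 Wald test Hnf4a passed at 0.33, which made 2 members higher. Without both replicates 3 Hnf4g was -0.176, and 1052 genes were higher and 660 lower. Leaving out each library in turn gave 0.23 to 0.42 for Hnf4a, -0.125 to 0.077 for Hnf4g, -0.396 to 0.046 for Pax8, 0.682 to 1.061 for Nr1h4, 1 to 2 members higher, 1374 to 2011 genes higher and 851 to 1523 lower, and -0.035 to 0.276 for the Esrrg to Esrra ratio. The sign changes were among values that passed no test. Libraries that share a replicate number showed no clear pairing. Correlations of their deviations from the group means were -0.15, 0.06 and 0.14 over 16373 genes. The best match of db/m replicate 1 was db/db replicate 2 (0.24). With 3 libraries per group, such correlations cannot exclude pairing or a shared batch. With the replicate block 1313 genes were higher and 973 lower, the same 3 members were called, and called genes were 2 of the ERR targets (higher), 1 higher and 2 lower of the FXR targets, 1 higher and 2 lower of the nuclear receptors and 0 of the principal cell markers. Where 1 library was left out of a group, or both replicates 3, the smaller groups entered the same pooled fit, and the cause of the changes was not tested beyond the fewer libraries. At this depth 3 counts are 0.0835 to 0.116 CPM, far below all 8 genes.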

Other observations

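Some members overlap genes on the opposite strand in GENCODE M21. The libraries were strand-specific, but whether counting used strand is not given in the sources used here, so reads of overlapping partners cannot be told apart. Within Pax2, the antisense gene 1700039E22Rik had 23, 28 and 20 counts in db/m replicates 1 to 3 and 0, 4 and 7 in db/db replicates 1 to 3, lower in db/db like Pax2 itself, which had 369 counts or more in each library. Hnf4aos, antisense to Hnf4a, had 398, 469 and 303 counts in db/m and 372, 559 and 483 in db/db (log2 fold change 0.60, SE 0.20, adjusted p = 0.0633). Trmt112, which overlaps Esrra, had 1049 to 1239 counts in db/m and 1117 to 1368 in db/db (log2 fold change 0.48, adjusted p = 0.0236). Within Pax8, Gm13415 had 5 to 33 counts in db/m and 10 to 14 in db/db. Esrrg overlaps Gm36388, Gm37929 and 9330162B11Rik on the opposite strand, which were not analysed here. That annotation gives no overlapping gene for Tfap2b or Nr1h4. These rows were looked at after the members' values had been seen.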
